A study of Homo sapiens with 11 samples.

Results

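Transcripts were compared between 769-P cells given the first of the study's siRNAs against AKR1A1 (si1, n = 3 libraries) and 769-P cells given a control siRNA (siSCR, n = 4). These 7 libraries were taken by their labels from a series of 11. The other 4 carry the second siRNA against AKR1A1 (si2) and serve to set si1 beside another siRNA to the same transcript and, in 1 alternative fit of all 11 libraries, to estimate the spread. 769-P is a human clear-cell renal carcinoma line. All cells stood in DMEM in 6-well plates and received siRNA, labelled at 20 µM, with RNAiMAX for 48 h. The labels give the controls the genotype wild-type and the siRNA groups AKR1A1-/-, and the series title speaks of knocking out. The treatment in the same labels is transfection of an siRNA, so the groups are described here as knockdowns. No label ties a replicate to its own culture. The p-values below therefore speak of the spread among these libraries, which may be technical.

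AKR1A1 encodes an aldo-keto reductase, an enzyme that uses NADPH to reduce aldehydes, among them glucuronate, and also S-nitroso-coenzyme A. Most of the processes below belong to the cell cycle, to the p53 response or to lipid and protein handling. Genes of DNA replication are switched on late in G1 and in S phase by E2F factors, and genes of mitosis in G2 by the MuvB complex with B-MYB and FOXM1. p53, when active, raises CDKN1A, whose product stops cyclin-dependent kinases, and both sets of cell cycle genes then fall. Genes of cholesterol synthesis are switched on by SREBP-2 when membranes hold little sterol.

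Values are normalized counts: reads on a gene divided by the library's size factor. Recovered reads on genes numbered between 2271348 and 3836109 in siSCR and between 2108546 and 3880155 in si1. The library siSCR 1 stood apart from the other controls. On the log2 scale it correlated with siSCR 2, 3 and 4 at Pearson's r of 0.915 to 0.930 across the 10517 genes tested, while those 3 correlated with each other at 0.971 to 0.976, and its highest r was with si1 1, at 0.959. Genes are not independent replicates, so these r describe likeness only. Mitochondrially encoded transcripts took 12.1% of the reads in siSCR 1 and between 3.46% and 4.46% in the other controls, against 11.1%, 6.57% and 7.82% in si1 1, 2 and 3. Among the si1 libraries, si1 2 was the least complex, with 11604 genes seen once all were thinned to 2108546 reads, where the 6 others showed 13072 to 13603. Counts of calls and most fold changes are therefore given with and without siSCR 1, and where both values of 1 gene stand together the first is with all 7 libraries unless stated otherwise.

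AKR1A1 (ENSG00000117448, chromosome 1, 45550543 to 45570049 on the plus strand, GRCh38) checks the labels. Its normalized counts were 390, 256, 200 and 242 in siSCR 1 to 4 and 81.7, 23.6 and 45.1 in si1 1 to 3. Every si1 library lay below every control, and siSCR 1 had the highest level of the 7. On the log2 scale si1 minus siSCR was -2.54 (SE 0.42, limma adjusted p = 0.0357) with all libraries and -2.36 (SE 0.43, adjusted p = 0.0230) without siSCR 1. An exact two-sided permutation test over libraries gave p = 0.0571 for 4 against 3 and p = 0.1 for 3 against 3, each the smallest that its design allows. Without any 1 library other than siSCR 1 the adjusted p lay between 0.0602 and 0.132, so the call was lost although the log2 fold change stayed between -2.98 and -2.10. With si2 the mean was 45.8 ± 10.2 (SD, n = 4), and si2 minus si1 was 0.01 on the log2 scale (adjusted p = 0.988). In RNA from a whole culture, less transcript in each cell and fewer cells with the transcript cannot be told apart.

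Fold changes are differences of log2(normalized count + 1), which understate the change of low genes, and a gene counts as called where limma's p, adjusted by Benjamini-Hochberg over all genes tested, is under 0.05. With all 7 libraries 181 of 10517 genes were called (1.72%), 83 higher in si1 (0.789%) and 98 lower (0.932%). Without siSCR 1 and over the same genes, 1351 were called (12.8%), 709 higher (6.74%) and 642 lower (6.1%), and these hold all of the 181, in the same direction. The filter on low values, a normalized count of at least 10 in 3 of the 7 libraries, was met only through the group with the higher level by 18 of the 181 and 66 of the 1351, and such genes had to differ. With all 7 libraries they enter the counts below for the recombination and cytokine lists. Without siSCR 1 they enter those for the centriole, replication, recombination, nucleotide, immediate-early, cytokine and clock lists. Part of each of those counts was therefore built in. Groups that did not overlap were common in the background: 21.7% of the tested genes with all 7 libraries and 40.4% without siSCR 1. Unadjusted p under 0.05 was reached by 2516 genes with all 7 libraries and 3421 without siSCR 1, and the median log2 fold change over all genes was -0.03 in both. voom on the recovered reads called 582 genes with all 7, of which 329 were higher and 253 lower, a larger share higher than in the main test. The count of 181 rested on each library: it was 0 without siSCR 2, siSCR 4, si1 1 or si1 3 (1698, 1721, 2351 and 2222 genes at unadjusted p under 0.05), 3 without siSCR 3 and 4 without si1 2. Of the genes picked by the naming rule, 52 were called with all 7 libraries besides AKR1A1, and all 52 lost the call without siSCR 2, siSCR 4, si1 1 or si1 3, 51 without siSCR 3 and 50 without si1 2. The 1351 became 6, 34 or 60 when siSCR 2, 3 or 4 was also left out, and 835, 1759 or 820 without si1 1, 2 or 3.

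To say where siSCR 1 lies for a gene, its distance from the mean of siSCR 2 to 4 was divided by the distance of the si1 mean from the same point, on the log2 scale. A position of 0 is the other controls, 1 is si1, and above 0.5 is nearer si1. siSCR 1 takes no part in the calls made without it, over which this was measured, but siSCR 2 to 4 do. Over the 1351 genes the median position was 0.647, and 838 (62.0%) lay above 0.5. siSCR 1 fell within the range of the si1 libraries alone for 396 genes, within the range of siSCR 2 to 4 alone for 124 and in neither for 831. A gene called with siSCR 1 included must tend to a low position, so positions of such genes are descriptions.

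**Figure D1:**
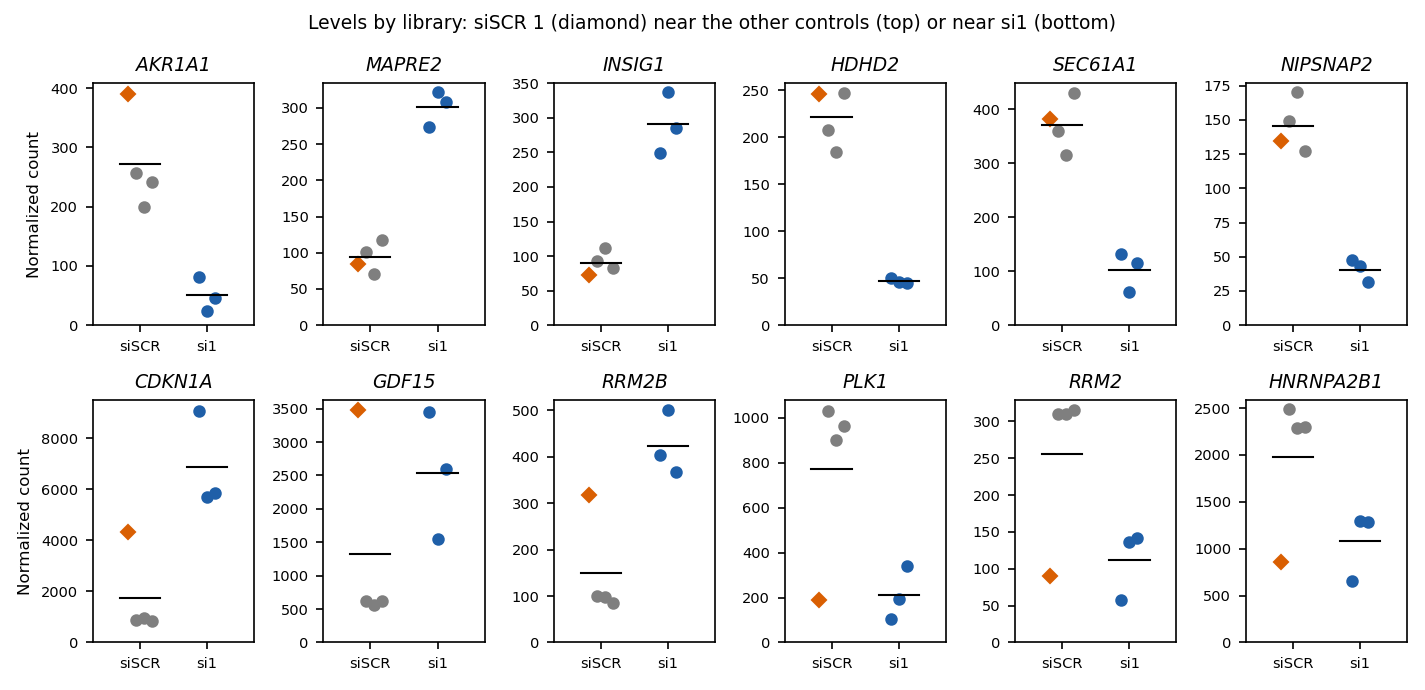
Normalized count (y axis, linear from 0) of 12 genes in siSCR (diamond, siSCR 1; grey, siSCR 2 to 4) and si1 (blue); bars are group means. The 12 were picked from the named genes after their values were seen. In the top row siSCR 1 lies near the other controls, as for HDHD2 at 246 against 184 to 247. For AKR1A1 and INSIG1 it lies outside their range, on the side away from si1. In the bottom row it lies toward or within si1, as for PLK1 at 188 against 903 to 1032, or beyond si1, as for GDF15.

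Genes of chromosome segregation were lower in si1 than in siSCR 2 to 4, and siSCR 1 lay with si1. Of 30 kinetochore and spindle checkpoint genes, 0 were called with all 7 libraries (median log2 fold change -1.40) and 18 fell without siSCR 1 (median -1.75). With all 7, 21 had an unadjusted p under 0.05 in limma, all lower, and voom called 0; without siSCR 1 voom called 27, all lower. All 18 had a position above 0.5 (median 0.84). Of 19 genes of the spindle midzone and cytokinesis, 0 were called with all 7 (median -1.37) and 12 fell without siSCR 1 (median -1.85), and for all 12 siSCR 1 lay nearer si1 (median position 0.92). There 11 had an unadjusted p under 0.05 with all 7 libraries, and voom called 1. PLK1, the kinase that drives mitotic entry and spindle assembly, had 188, 1032, 903 and 965 normalized counts in siSCR 1 to 4 and 103, 193 and 338 in si1. siSCR 1 thus sat inside the si1 range. Its log2 fold change was -1.76 (SE 0.67, adjusted p = 0.167) with all 7 and -2.35 (SE 0.42, adjusted p = 0.0218) without siSCR 1. BUB1B, a kinase of the spindle checkpoint, stood at 64.6, 256, 209 and 225 against 36.9, 69.4 and 48.1, with siSCR 1 again inside the si1 range. It changed by -1.73 (adjusted p = 0.102) and -2.18 (adjusted p = 0.0107) with and without siSCR 1. SPC25 (-1.82 and -2.40) and CENPI (-1.80 and -2.25), which build the kinetochore, KIF23 (-1.72 and -2.26), a motor of the midzone, and KIF14 (-1.75 and -2.17), a motor of cytokinesis, followed the same pattern. KIF18A, a kinesin that limits chromosome movement at the spindle, differed in that siSCR 1, at 26.0, lay between si1 at 12.5 to 18.0 and the other controls at 66.2 to 85.5. In the kinetochore list CENPC and MIS12 stayed near 0, at -0.18 and -0.24 with all 7 libraries and at -0.18 and -0.32 without siSCR 1, and neither was called.

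Promoters of these genes often carry a short element, the cell cycle homology region (CHR), which is read by the MuvB complex, with a CCAAT box upstream. The letters TTTGAA (CHR), CCAAT, and TTTGGCGC or TTTCCCGC (E2F) were searched on both strands in the 250 bases before to 50 after each gene's start, from RefSeq on GRCh38.p14, each on its own so that matches may overlap. Of the tested genes, 8606 had a promoter in that table. CHR letters stood in 9.18% of them, in 13 of 24 kinetochore promoters (54.2%), in 14 of 16 midzone and cytokinesis promoters (87.5%) and in 0 of 34 replication promoters. E2F letters stood in 4.01% of tested genes, in 16 of 34 replication promoters (47.1%), in 2 of 24 kinetochore promoters and in 1 of 16 midzone promoters. Of all 27305 promoters in the table, 15.4% held the CHR letters and 2.31% the E2F letters. CCAAT was common, in 37.4% of tested genes and 35.7% of all promoters, and stood in 15 of 16 midzone promoters. A match is a run of letters and not a shown site. The 150 bases before the start of 2 mitotic genes and 2 replication genes are given because these lists fell together. Capitals mark CHR and CCAAT letters in the mitotic genes and E2F letters in the replication genes, on either strand. The BUB1B stretch holds CHR letters and no CCAAT letters.
PLK1, chr16:23678739-23678888, plus strand: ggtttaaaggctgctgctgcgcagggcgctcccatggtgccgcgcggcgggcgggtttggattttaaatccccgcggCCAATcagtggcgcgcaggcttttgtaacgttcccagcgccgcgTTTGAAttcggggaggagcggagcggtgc
BUB1B, chr15:40160919-40161068, plus strand: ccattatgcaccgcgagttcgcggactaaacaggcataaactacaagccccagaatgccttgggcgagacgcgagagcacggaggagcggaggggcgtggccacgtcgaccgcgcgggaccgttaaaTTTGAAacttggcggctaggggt
RFC3, chr13:33817999-33818148, plus strand: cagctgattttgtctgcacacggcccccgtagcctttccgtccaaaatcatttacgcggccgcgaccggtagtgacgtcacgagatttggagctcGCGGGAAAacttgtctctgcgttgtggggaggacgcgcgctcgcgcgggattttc
DTL, chr1:212035598-212035747, plus strand: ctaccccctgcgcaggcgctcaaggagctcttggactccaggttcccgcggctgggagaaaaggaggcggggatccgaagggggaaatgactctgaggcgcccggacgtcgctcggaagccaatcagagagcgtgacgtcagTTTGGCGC

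Replication genes held both kinds of fall. Of 38 genes of origins and forks, 2 fell with all 7 libraries and 19 without siSCR 1, and the medians were -1.18 and -1.49. None of the 38 rose in either, also at an unadjusted p under 0.05 in limma or by voom. The 2 were RFC3, a subunit of the clamp loader, and POLA2, a subunit of DNA polymerase alpha. RFC3 stood at 107, 286, 198 and 277 in siSCR 1 to 4 and at 47.4, 55.5 and 60.1 in si1. siSCR 1 lay between the groups, and the log2 fold change was -1.88 (SE 0.35, adjusted p = 0.0483) with all 7 libraries and -2.19 (SE 0.21, adjusted p = 0.00886) without siSCR 1. POLA2 was low in all libraries, at 36.9 to 60.1 in siSCR and 6.94 to 18.0 in si1, and 35.1% of its exon bases are shared with other genes, so its reads may be partly theirs. DTL, which directs the destruction of licensing factors in S phase, had 123 in siSCR 1, 288 to 321 in the other controls and 51.3 to 94.7 in si1, with -1.89 (adjusted p = 0.0584) and -2.21 (adjusted p = 0.0107). MCM10 and GINS4, which help to start the fork, had siSCR 1 inside the si1 range, at positions of 0.79 and 1.01. GINS4 shares 23.6% of its exon bases. The sliding clamp PCNA did not pass either test, at -0.31 and -0.41.

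Genes that repair and supply the fork moved the same way. In homologous recombination and crosslink repair, 2 of 29 fell with all 7 and 10 without siSCR 1 (medians -1.11 and -1.56). FANCA, of the Fanconi anaemia core complex, stood at 20.1, 58.8, 45.8 and 57.0 in siSCR and at 7.03, 5.55 and 9.02 in si1. It met the filter on low values through siSCR alone, so a difference was built in, and 23.6% of its exon bases are shared with other genes. It fell by 2.41 on the log2 scale with all 7 libraries (adjusted p = 0.0341) and by 2.76 without siSCR 1 (adjusted p = 0.00811). FANCD2 was at 53.7 in siSCR 1 against 163 to 187 in the other controls and 29 to 66.1 in si1. In deoxynucleotide and purine synthesis 2 of 21 fell with all 7 and 7 without siSCR 1 (medians -0.42 and -0.77). RRM2, the S phase subunit of ribonucleotide reductase, showed how much 1 control can weigh: siSCR 2 to 4 lay at 310, 310 and 316, siSCR 1 at 89.8, and si1 at 58.0, 136 and 141. Its log2 fold change was -1.13 (adjusted p = 0.237) with siSCR 1 and -1.58 (adjusted p = 0.0374) without it, and 20.2% of its exon bases are shared. GMPS, the last enzyme of GMP synthesis, fell in both (-1.04 and -1.06), and siSCR 1, at 270, lay within the 256 to 341 of the other controls.

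Centriole and cohesin genes fell in part. Of 30 genes of centriole duplication and spindle nucleation, 2 fell with all 7 libraries and 11 without siSCR 1 (medians -0.63 and -0.71). Both of the 2 belong to augmin, which branches spindle microtubules. HAUS6 stood at 154, 154, 141 and 142 in siSCR and 83.4, 74.9 and 75.1 in si1, so siSCR 1 matched the other controls (-0.92, adjusted p = 0.0405; -0.90, adjusted p = 0.0215). HAUS4 was called in both too (-1.76 and -1.82), and 35.9% of its exon bases are shared. STIL and CEP152, which start the new centriole, were called without siSCR 1 alone, at -2.16 and -1.61 against -1.72 and -1.27 with all 7 libraries, with siSCR 1 inside the si1 range for both. In the list of 22 cohesin and condensin genes, 0 were called with all 7 and 8 fell without siSCR 1 (medians -0.63 and -1.03), while 10 had an unadjusted p under 0.05 in limma with all 7 and voom called 3. CDCA5, which holds sister chromatids together, and ESCO2, which acetylates cohesin, had -2.96 and -2.55 there, against -2.47 and -2.03 with siSCR 1. NIPBL, the cohesin loader, was at 0.03 and 0.00.

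**Figure D2:**
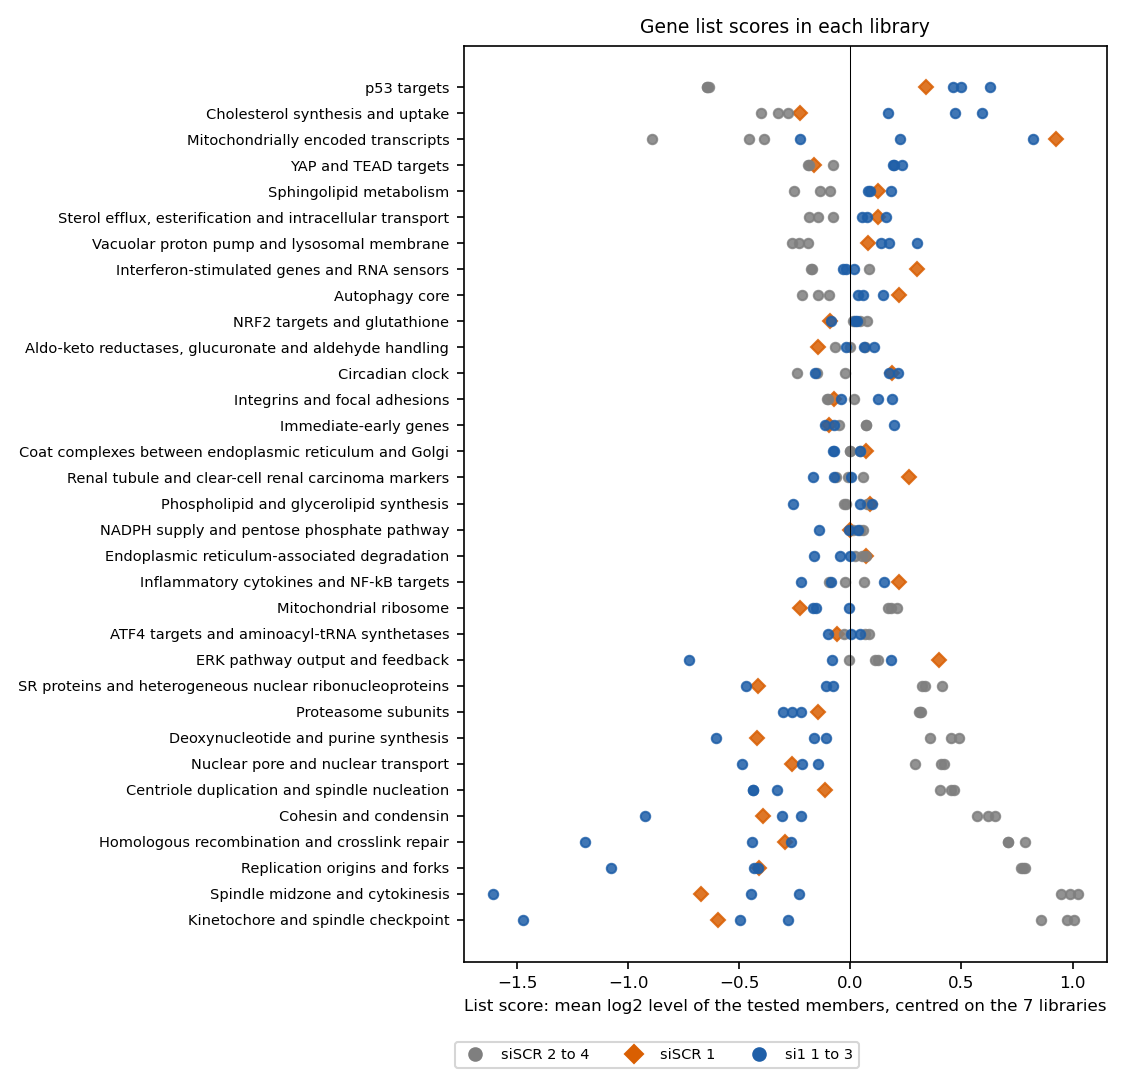
Score of 33 gene lists (x axis: mean log2 level of the tested members, each centred on its mean over the 7 libraries) in siSCR 2 to 4 (grey), siSCR 1 (diamond) and si1 1 to 3 (blue). For kinetochore genes siSCR 1 is at -0.60, among si1 at -1.47 to -0.28 and away from the other controls at 0.86 to 1.01, whereas for cholesterol synthesis it is at -0.23, beside the other controls at -0.40 to -0.28.

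Targets of p53 moved opposite to the cell cycle lists. Of 28 tested, 2 rose with all 7 libraries and 17 without siSCR 1, and the medians were 0.98 and 1.28. None fell in either, also at an unadjusted p under 0.05 in limma or by voom. siSCR 1 was nearer si1 for 15 of the 17 (median position 0.81). The list score was 0.34 in siSCR 1, -0.65 to -0.64 in siSCR 2 to 4 and 0.46 to 0.63 in si1. CDKN1A, the inhibitor of cyclin-dependent kinases, stood at 4349, 892, 948 and 853 in siSCR 1 to 4 and at 9083, 5710 and 5846 in si1. The si1 libraries were above all controls, yet siSCR 1 was far above the other 3. Its log2 fold change was 2.33 (SE 0.58, adjusted p = 0.0740) with all 7 and 2.90 (SE 0.23, adjusted p = 0.00811) without siSCR 1. RRM2B, the p53-induced subunit of ribonucleotide reductase, had 317 in siSCR 1, 84.5 to 100 in the other controls and 367 to 501 in si1. GDF15, a secreted stress cytokine, was 3481 in siSCR 1, above every si1 library (1549 to 3450) and far above the 566 to 621 of the other controls. Its log2 fold change was 1.36 (adjusted p = 0.248) with siSCR 1 and 2.00 (adjusted p = 0.0166) without it.

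BTG2 and PMAIP1 were the p53 targets called in both fits. BTG2, which slows proliferation, stood at 37.8, 20.3, 20.9 and 24.4 in siSCR and at 90.4, 160 and 88.7 in si1 (2.07, SE 0.30, adjusted p = 0.0318; 2.26, SE 0.27, adjusted p = 0.0107). PMAIP1, which encodes the death-promoting protein NOXA, went from 48.7, 27.8, 20.9 and 27.5 to 81.7, 142 and 114 (1.85, adjusted p = 0.0402; 2.08, adjusted p = 0.0110). For both, siSCR 1 was the highest control and still below every si1 library. SESN1, which restrains mTORC1, stood at 62.1 in siSCR 1, 20.4 to 30.1 in the other controls and 109 to 200 in si1, and was called without siSCR 1 alone (2.13, adjusted p = 0.0524; 2.47, adjusted p = 0.0107). The receptor genes FAS, TNFRSF10A and TNFRSF10B and the effector BAX, all on the list, did not pass either test, and lay between -0.30 and 0.29 over both fits. The share of mitochondrial reads was high in the same 4 libraries in which these targets were high and the cell cycle genes low. This share was entered as a covariate in 1 alternative fit, where 9 of the 154 named genes besides AKR1A1 lost their call and 10 gained it. Those counts run over all named genes, so the part of the share in the p53 and cell cycle results was not tested.

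RNA-binding and nuclear transport genes also placed siSCR 1 with si1. In the list of 29 SR proteins and heterogeneous nuclear ribonucleoproteins, which bind pre-mRNA and steer splicing, 0 were called with all 7 libraries and 7 fell without siSCR 1 (medians -0.33 and -0.57). With all 7 libraries 4 had an unadjusted p under 0.05 in limma and voom called 0. All 7 had a position above 0.5, with a median of 1.11. HNRNPA2B1 had 857, 2492, 2285 and 2297 in siSCR 1 to 4 and 654, 1296 and 1286 in si1. siSCR 1 lay inside the si1 range, and the log2 fold change went from -0.83 (adjusted p = 0.279) to -1.19 (adjusted p = 0.0477) when it was left out. HNRNPD (568 in siSCR 1, 1278 to 1411 in the other controls, 513 to 717 in si1) and HNRNPM (869, 1813 to 2038 and 803 to 1073) had the same order. Of 32 genes of the nuclear pore and nuclear transport, 0 were called with all 7 and 9 fell without siSCR 1 (medians -0.49 and -0.59). With all 7 libraries 8 had an unadjusted p under 0.05 in limma and voom called 0. KPNA2, an importin, was 178 in siSCR 1, 495 to 573 in the other controls and 151 to 290 in si1, and changed by -0.94 and -1.34. NUP35, a nucleoporin of the inner ring, had a lower position of 0.43 and was at -1.58 and -1.77. The exportin XPO1 did not pass either test (-0.40 and -0.58).

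Mitochondrially encoded transcripts were high in siSCR 1 and in si1 1. Of 13, 0 were called with all 7 libraries and 4 rose without siSCR 1, and all 4 had a higher log2 level in siSCR 1 than the si1 mean (median position 1.33). With all 7 libraries 1 had an unadjusted p under 0.05 in limma, voom called 0, and without siSCR 1 voom called 9. MT-CO3, a subunit of cytochrome c oxidase, stood at 84406, 21729, 19383 and 23239 in siSCR and 81456, 47121 and 55611 in si1. The groups overlapped through siSCR 1 alone. Its log2 fold change was 0.99 (adjusted p = 0.278) with and 1.48 (adjusted p = 0.0186) without siSCR 1. MT-ND4L and MT-ND6 did not share the rise, at -0.12 and -0.45 with all 7 libraries and at -0.04 and -0.18 without siSCR 1. Of 39 nuclear genes of the mitochondrial ribosome, 0 and 2 were lower with and without siSCR 1: MRPL16 (-0.97 and -1.09) and MRPL11 (-0.67 and -0.82). The 2 are 5.13% of the list, below the 6.1% of all genes that fell without siSCR 1. With all 7 libraries 6 of the 39 had an unadjusted p under 0.05 in limma, all lower, and voom called 1.

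**Figure D3:**
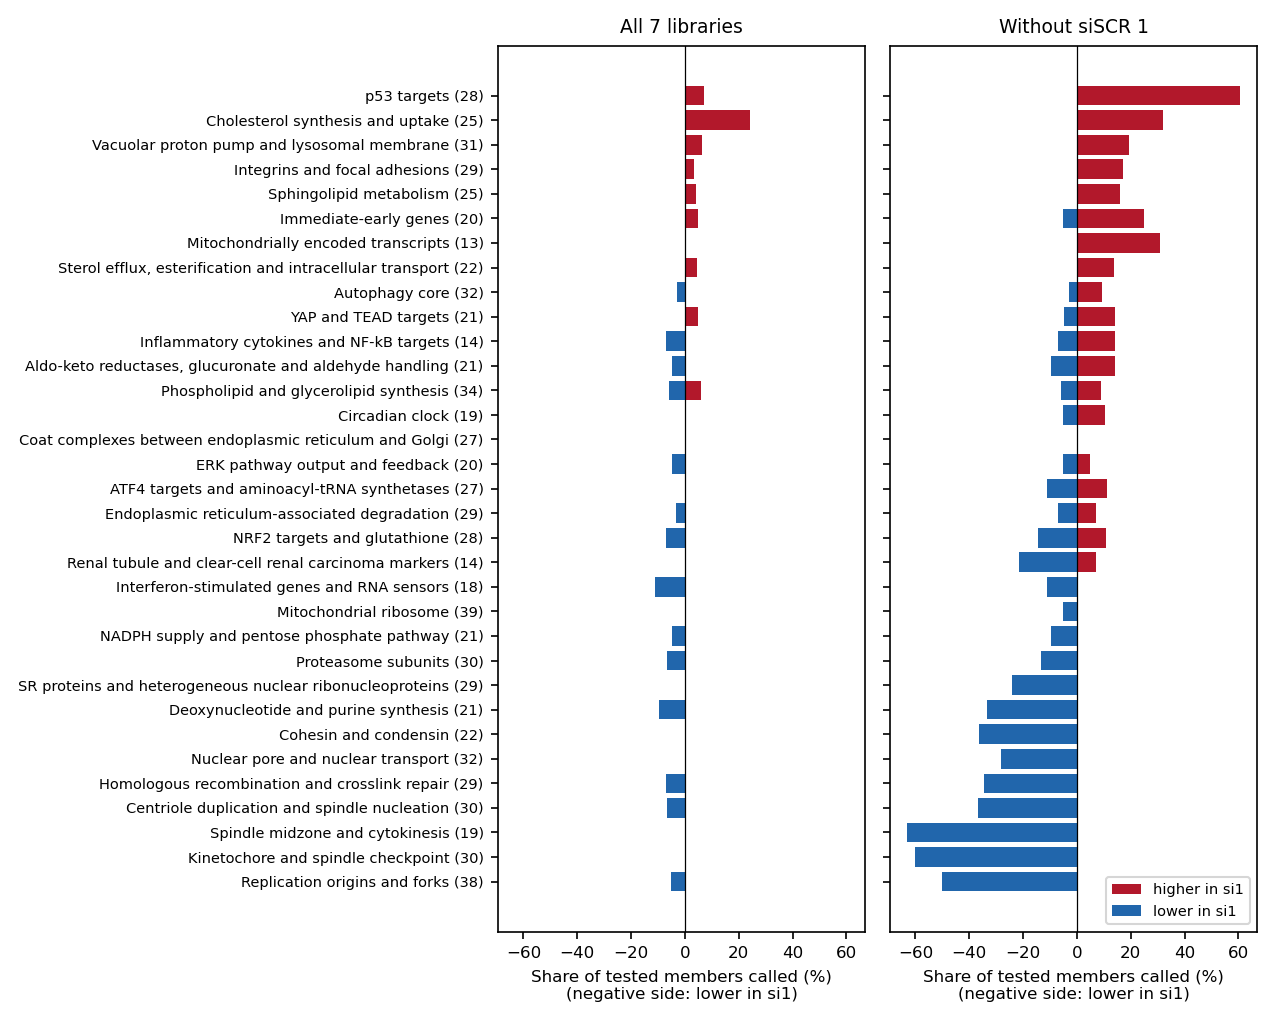
Share of tested members called higher (red, right) or lower (blue, left) in si1 for 33 gene lists (number tested in brackets), with all 7 libraries (left panel) and without siSCR 1 (right panel); x axis in percent, starting from 0 in the middle. Over all genes the shares are 0.789% higher and 0.932% lower in the left panel and 6.74% and 6.1% in the right; cholesterol synthesis has the longest red bar on the left and p53 targets the longest on the right.

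Cholesterol genes rose with siSCR 1 in place. Of 25 genes of synthesis and uptake, 6 were higher with all 7 libraries and 8 without siSCR 1, and the medians were 0.51 and 0.64. Without si1 2 the first of these was 0.82. None fell in either, also at an unadjusted p under 0.05 in limma or by voom. Over the 8 the median position of siSCR 1 was 0.13. The 6 enter into that median and were called with siSCR 1 included. INSIG1, which holds the SREBP complex in the endoplasmic reticulum, stood at 72.2, 92.9, 111 and 82.5 in siSCR and at 249, 337 and 286 in si1. siSCR 1 was the lowest control, and INSIG1 rose by 1.69 (SE 0.21, adjusted p = 0.0318) and 1.59 (SE 0.20, adjusted p = 0.0124) with and without it. DHCR7, the last step to cholesterol, stood at 52.0, 53.4, 66.7 and 37.7 against 176, 167 and 164, and its log2 fold change was 1.70 in both fits, to 2 decimals. MSMO1, which removes sterol methyl groups, went from 131, 78.0, 64.1 and 78.4 to 265, 358 and 292 (1.82, adjusted p = 0.0318; 2.03, adjusted p = 0.00883), with siSCR 1 the highest control. SQLE, the squalene epoxidase, rose by 1.84 (adjusted p = 0.0491) and 2.11 (adjusted p = 0.0118). SREBF2, which encodes SREBP-2, had 178 in siSCR 1, 94.7 to 102 in the other controls and 275 to 312 in si1, and passed without siSCR 1 alone (1.34, adjusted p = 0.0511; 1.55, adjusted p = 0.00886).

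The cholesterol list did not move as a block. FDPS, which makes farnesyl diphosphate, was at -0.05 and -0.15, NSDHL, a sterol dehydrogenase, was at -0.03 and -0.20, and neither was called. The sterol regulatory element TCACNCCAC stood in 1 of 19 promoters of the list (5.26%), that of SREBF2, and in 1.08% of tested genes and 1.15% of all promoters; CCAAT stood in 15 of the 19 (78.9%). With si2 the means were 289 ± 51.1 (SD, n = 4) for INSIG1, 131 ± 52.3 for DHCR7 and 249 ± 25.1 for MSMO1. si2 minus si1 was -0.01, -0.45 and -0.28 on the log2 scale for these 3, with adjusted p of 0.974, 0.379 and 0.373. A p above the threshold does not show that the siRNAs acted alike.

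Sterol export and transport changed in few members. Of 22 genes 1 rose with all 7 libraries and 3 without siSCR 1. These are 4.55% and 13.6%, against 0.789% and 6.74% of all genes. NPC2, which carries cholesterol inside the lysosome, stood at 547, 403, 485 and 480 in siSCR and 1030, 1057 and 1106 in si1, without overlap (1.16, adjusted p = 0.0325; 1.23, adjusted p = 0.0135). Its partner NPC1 was at 252 in siSCR 1, inside the si1 range of 237 to 296, and was called without siSCR 1 alone (0.68, adjusted p = 0.185; 0.90, adjusted p = 0.0285). ABCA1, which exports cholesterol to apolipoprotein A-I, went from 110 to 223 in siSCR to 344 to 411 in si1 (1.21, adjusted p = 0.0609; 1.36, adjusted p = 0.0228).

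Enzymes of phospholipid and glycerolipid synthesis gave single calls in each direction. Of 34, 2 rose and 2 fell with all 7 libraries (5.88% each way, against 0.789% and 0.932% of all genes). Without siSCR 1, 3 rose (8.82%) and 2 fell (5.88%), shares close to the 6.74% and 6.1% of all genes, and the list medians were -0.013 and -0.0062. GPAM, the mitochondrial enzyme that adds the first acyl chain to glycerol phosphate, stood at 22.7, 55.6, 40.6 and 49.9 in siSCR and at 6.15, 13.9 and 6.01 in si1 (-2.18, adjusted p = 0.0445; -2.44, adjusted p = 0.0135). AGPAT3, which adds the next chain, stood at 1140, 1004, 933 and 1031 against 507, 265 and 307 (-1.57, adjusted p = 0.0341; -1.51, adjusted p = 0.0220). Both fell without overlap, and siSCR 1 was the highest control for AGPAT3 and the lowest for GPAM. LPIN1, the phosphatidate phosphatase, rose from 64.6, 47.0, 58.9 and 45.8 to 159, 147 and 156 (1.51, adjusted p = 0.0318; 1.60, adjusted p = 0.00925). LPCAT3, which puts arachidonate into phospholipids, rose by 1.38 and 1.47, and 65.6% of its exon bases are shared with other genes. Of 25 genes of sphingolipid metabolism 1 rose with all 7 (4%, against 0.789% of all genes) and 4 without siSCR 1 (16%, against 6.74%). SMPD1, the acid sphingomyelinase of the lysosome, was the former, from 73.3 to 97.4 in siSCR to 178 to 238 in si1 (1.21, adjusted p = 0.0349; 1.28, adjusted p = 0.0166). For ASAH1, the acid ceramidase, siSCR 1 at 225 lay within si1 at 200 to 294, with the other controls at 81.2 to 124.

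Lysosomal membrane genes rose in part, while the proteasome fell in part. Of 31 genes of the vacuolar proton pump and lysosomal membrane, 2 rose with all 7 libraries and 6 without siSCR 1 (medians 0.26 and 0.39). These are 6.45% and 19.4%, against 0.789% and 6.74% of all genes. ATP6V1B2, a subunit of the pump's catalytic part, stood at 150, 162, 191 and 155 in siSCR and 381, 332 and 374 in si1. siSCR 1 was the lowest control, and ATP6V1B2 rose by 1.14 (adjusted p = 0.0333) and 1.10 (adjusted p = 0.0172). OSTM1, the partner of the chloride transporter CLCN7, went from 78.9, 33.1, 48.4 and 34.6 to 184, 183 and 173 (1.95, adjusted p = 0.0341; 2.21, adjusted p = 0.00811). CLCN7 itself passed without siSCR 1 alone, with siSCR 1 at 150 inside the si1 range of 137 to 175. CLCN7 shares 16.1% of its exon bases. Of 30 proteasome subunits 2 fell with all 7 and 4 without siSCR 1 (medians -0.39 and -0.50). The shares are 6.67% and 13.3%, against 0.932% and 6.1% of all genes. PSMD2, which scaffolds the base of the regulatory particle, stood at 2282, 2785, 2752 and 2915 against 1112, 665 and 941 (-1.59, SE 0.22, adjusted p = 0.0318; -1.67, SE 0.23, adjusted p = 0.0135). PSMC6, an ATPase of the same base, had 130, 209, 200 and 176 against 73.8, 41.6 and 75.1 (-1.51, adjusted p = 0.0469; -1.65, adjusted p = 0.0181). The catalytic subunits PSMB5 and PSMB6, at -0.17 and -0.49 with all 7 and -0.23 and -0.60 without siSCR 1, were not called.

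In endoplasmic reticulum-associated degradation and autophagy the calls with all 7 libraries were 1 gene each, of 29 and 32 tested. Without siSCR 1, 2 rose and 2 fell in the first list (6.9% each way), and 3 rose and 1 fell in the second (9.38% and 3.12%). Over all genes 6.74% rose and 6.1% fell in that fit, so these counts are near the background. ERLIN1, which holds a ubiquitin ligase at the membrane, stood at 57.9, 116, 128 and 101 in siSCR and 5.27, 1.39 and 10.5 in si1, and on the log2 scale it changed by -4.13 (adjusted p = 0.0318) with and -4.38 (adjusted p = 0.0117) without siSCR 1. The count of 1.39 in si1 2 is 1 read, and 1.39 normalized counts per read is the resolution of that library. VCP, the ATPase that extracts proteins from the membrane, had 781, 966, 930 and 908 against 513, 487 and 511 (-0.83, adjusted p = 0.0546; -0.89, adjusted p = 0.0199). BECN1, a subunit of the lipid kinase that starts autophagosomes, fell from 292, 359, 383 and 325 to 69.4, 58.3 and 84.2 (-2.26, adjusted p = 0.0185; -2.33, adjusted p = 0.00811), and 17.1% of its exon bases are shared. Its partners PIK3C3 and PIK3R4 were not called (0.23 and -0.07 with all 7, 0.26 and -0.07 without siSCR 1). OPTN, an autophagy receptor, was 991 in siSCR 1, above every si1 library (720 to 983), and 387 to 395 in the other controls. In the list of 27 coat proteins between endoplasmic reticulum and Golgi, 0 were called in either limma fit, and the members of highest level, KDELR1 and ARF1, were at -0.16 and -0.23 with all 7 and -0.19 and -0.30 without siSCR 1. With all 7 libraries 2 of the 27 were higher and 2 lower at an unadjusted p under 0.05, and voom called 0.

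Redox and carbonyl genes held single changes. Of 21 genes of NADPH supply 1 fell with all 7 libraries and 2 without siSCR 1. The 2 are 9.52% of the list, against 6.1% of all genes lower in that fit. TKT, the transketolase of the pentose phosphate pathway, stood at 1291, 1330, 1099 and 1186 in siSCR and 509, 371 and 562 in si1, with siSCR 1 inside the control range (-1.37, adjusted p = 0.0318; -1.34, adjusted p = 0.0179). PGD, a step of that pathway that makes NADPH, was at 0.12 and 0.10 and was not called. In the list of 28 NRF2 targets and glutathione genes, 2 fell with all 7, and 3 rose and 4 fell without siSCR 1. The latter are 10.7% and 14.3%, against 6.74% and 6.1% of all genes. GCLM, the regulatory subunit of glutamate-cysteine ligase, had 344, 391, 366 and 497 against 103, 38.9 and 113 (-2.35, adjusted p = 0.0341; -2.42, adjusted p = 0.0206). The catalytic subunit GCLC was at 0.30 and 0.26 and was not called, and NQO1, a common marker of NRF2 output, was at -0.27 and -0.50. TXNRD1, the thioredoxin reductase, had siSCR 1 at 429 within si1 at 281 to 472 and the other controls at 754 to 891. AKR1A1 was the member called with all 7 among 21 aldo-keto reductase, glucuronate and aldehyde genes. Without siSCR 1, 3 rose and 2 fell (14.3% and 9.52%, against 6.74% and 6.1% of all genes). AKR1B1, the aldose reductase and a relative of AKR1A1, stood at 2253, 850, 825 and 828 in siSCR and 1922, 1798 and 1788 in si1 (0.78, adjusted p = 0.246; 1.14, adjusted p = 0.0132). MIOX, which turns inositol into glucuronate, a substrate of AKR1A1, went from 79.8, 40.6, 24.9 and 29.5 to 151, 112 and 170 (1.83, adjusted p = 0.0607; 2.16, adjusted p = 0.0107).

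Among adhesion and YAP genes the calls with all 7 libraries were ITGA1 and ANKRD1, 3.45% and 4.76% of their lists, against 0.789% of all genes higher. ITGA1, a collagen-binding integrin, stood at 70.5, 50.2, 66.7 and 35.6 in siSCR and 242, 236 and 177 in si1 (1.99, adjusted p = 0.0318; 2.11, adjusted p = 0.0125). Without siSCR 1, 5 of 29 integrin and focal adhesion genes rose (17.2%, against 6.74% of all genes) and 0 fell. The medians of that list were 0.04 with all 7 libraries and -0.04 without siSCR 1, and in the latter voom called 5 higher and 4 lower. PTK2, the focal adhesion kinase, was among the limma rises (1.05, adjusted p = 0.0653 with all 7, and 1.19, adjusted p = 0.0236 without siSCR 1). ANKRD1, a target of YAP with TEAD factors, had 17.6, 22.4, 7.85 and 22.4 against 93.1, 129 and 99.2 (2.63, SE 0.36, adjusted p = 0.0318; 2.66, SE 0.41, adjusted p = 0.0166). siSCR 1 was within the other controls. Without siSCR 1, 3 of 21 YAP and TEAD targets rose and 1 fell (14.3% and 4.76%, against 6.74% and 6.1% of all genes). CCN1 and CCN2, also on the list, were not called (0.44 and 1.05 with all 7, 0.11 and 1.07 without siSCR 1). The TEAD letters GGAATG stood in 10.4% of tested genes, 14.0% of all promoters and 5 of 15 promoters of the list (33.3%). The 250 bases before the start of ANKRD1, the member with the largest rise, hold them at both places in capitals.
ANKRD1, chr10:90921088-90921337, minus strand: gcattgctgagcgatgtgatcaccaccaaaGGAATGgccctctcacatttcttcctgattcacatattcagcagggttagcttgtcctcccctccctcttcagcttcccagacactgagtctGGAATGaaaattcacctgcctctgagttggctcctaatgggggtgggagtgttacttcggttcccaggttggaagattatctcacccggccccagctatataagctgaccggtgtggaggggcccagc

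Signalling lists had between 0 and 2 calls each with all 7 libraries. AREG, a ligand of the EGF receptor, was the 1 of 20 ERK output genes called with all 7. It stood at 5394, 4320, 3362 and 3515 in siSCR and 1300, 1493 and 1282 in si1, with siSCR 1 the highest control (-1.59, SE 0.22, adjusted p = 0.0318; -1.45, SE 0.18, adjusted p = 0.0119). The feedback inhibitors DUSP6 and SPRY2 were at 0.54 and -2.13 with all 7 libraries and at 0.51 and -1.63 without siSCR 1, and were not called. Without siSCR 1, 1 of the 20 rose and 1 fell (5% each way), below the 6.74% and 6.1% of all genes. Among 18 interferon-stimulated genes and RNA sensors 2 fell in both fits (11.1%), against 0.932% and 6.1% of all genes with and without siSCR 1. OAS3, which makes the activator of RNase L, had 51.2, 126, 130 and 81.5 against 11.4, 13.9 and 28.6 (-2.38, adjusted p = 0.0419; -2.66, adjusted p = 0.0140), and DDX60, a helicase of RNA sensing, had -1.37 and -1.47. The median of that list was 0.24 with all 7, opposite in sign to these 2, 0.30 without siSCR 1 and -0.0064 once the mitochondrial share entered the fit. Of 20 immediate-early genes 1 rose with all 7 (BTG2, which is also a p53 target). Without siSCR 1, 5 of them rose and 1 fell (25% and 5%, against 6.74% and 6.1% of all genes). Among 14 cytokine and NF-kB genes BIRC3 and NFKBIZ, targets of NF-kB, rose without siSCR 1 alone, by 1.09 (adjusted p = 0.0287) and 0.98 (adjusted p = 0.0276), against 0.97 and 0.87 with all 7. These rises are 14.3% of the list, against 6.74% of all genes in that fit. IL11, a cytokine of the IL-6 family, was the other member called, in both fits. It had 2.52, 18.2, 13.1 and 12.2 in siSCR and no read in si1, and it met the filter on low values only through siSCR 2 to 4, so its call is not read as a fall. Of 27 ATF4 targets and aminoacyl-tRNA synthetases 0 were called with all 7. Without siSCR 1, 3 of them rose and 3 fell (11.1% each way, against 6.74% and 6.1% of all genes). With all 7, 7 were higher and 5 lower at an unadjusted p under 0.05 in limma, and voom called 1. DDIT4, an inhibitor of mTORC1, had siSCR 1 at 103, above si1 at 79.1 to 99.2, with the other controls at 18.3 to 26.5, and shares 41.2% of its exon bases. DBP, a transcription factor under control of the circadian clock, was at 10.1 in siSCR 1, 1.02 to 1.31 in the other controls and 15.3 to 27.1 in si1. Of 19 clock genes 2 rose and 1 fell without siSCR 1 (10.5% and 5.26%, against 6.74% and 6.1% of all genes), and 0 were called with all 7 libraries. With all 7, 4 were higher and 4 lower at an unadjusted p under 0.05 in limma, and voom called 1 in each direction. The levels of DBP in siSCR 2 to 4 are 1 read each, so its fold change is not well set.

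**Figure D4:**
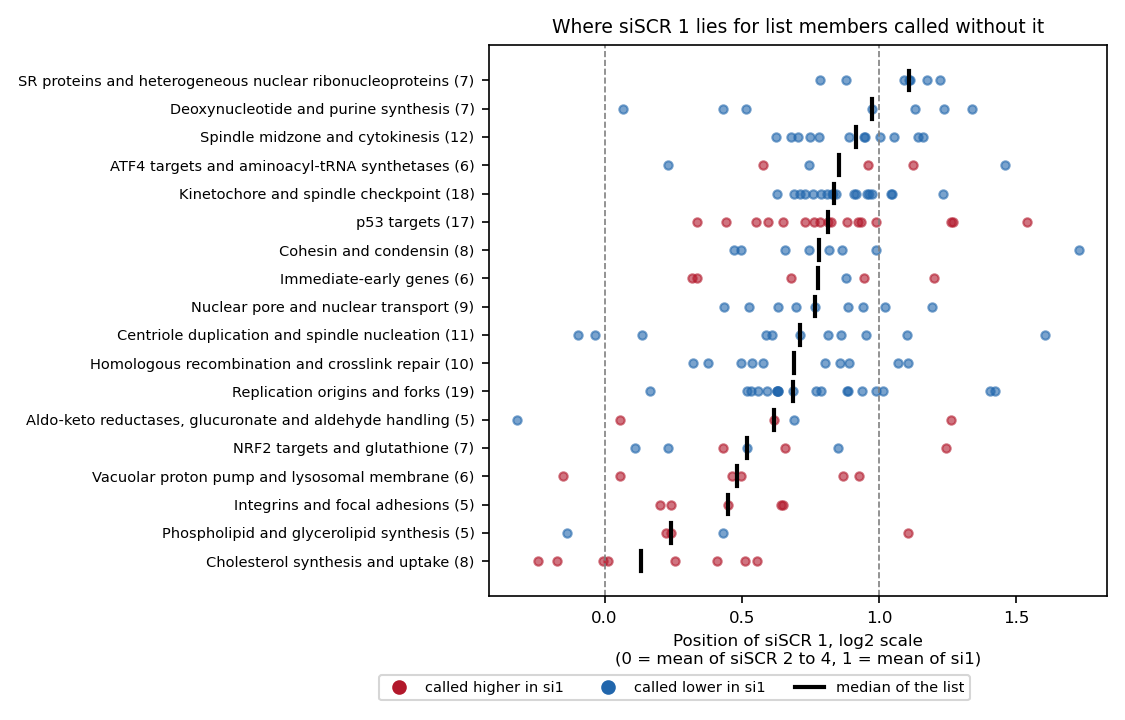
Position of siSCR 1 (x axis: 0, mean of siSCR 2 to 4; 1, mean of si1; log2 scale) for the members called without siSCR 1 in the lists with at least 5 of them, red for higher and blue for lower in si1, with the list median as a black bar and the number of members in brackets. Medians run from 0.13 for cholesterol synthesis and uptake to 1.11 for SR proteins and heterogeneous nuclear ribonucleoproteins, against 0.647 over all 1351 genes.

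Beyond the lists, genes were taken from places 9 to 20 of the largest rises and of the largest falls called in both fits. The 12 rises ran from 1.51 to 1.82 and the 12 falls from -2.24 to -1.60 with all 7 libraries, all without overlap, which the rule required. MAPRE2, which binds growing microtubule ends, stood at 84.8, 100, 70.6 and 118 in siSCR and 274, 322 and 308 in si1 (1.70, SE 0.22; 1.66, SE 0.23 without siSCR 1). siSCR 1 lay among the other controls. RGS2, which switches off G protein signals, had 110, 65.2, 73.3 and 64.2 against 223, 257 and 221 (1.60; 1.77). DUSP3, a dual-specificity phosphatase, had 369, 209, 181 and 236 against 848, 727 and 621, with siSCR 1 the highest control for both of these genes. SSH2, a phosphatase that activates cofilin, had 47.0, 40.6, 32.7 and 36.7 against 115, 126 and 111, and ARID5B, a chromatin regulator, 80.6, 84.4, 68.0 and 71.3 against 200, 315 and 176. FNIP2, a partner of folliculin at the lysosome, had controls as far apart as 30.1 and 71.3, with si1 at 136 to 197. PPFIBP1, an adaptor of the liprin family, and SMIM24 complete the rises not met above, at 1.63 and 1.64 with all 7 libraries and 1.81 and 1.44 without siSCR 1.

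Among the falls described here, siSCR 1 lay within the range of siSCR 2 to 4 for HDHD2, SEC61A1 and NIPSNAP2 and in the range of neither group for the rest. These genes were called with siSCR 1 included, which favours low positions. HDHD2, of the haloacid dehalogenase family, stood at 246, 207, 184 and 247 in siSCR and 50.1, 45.8 and 45.1 in si1 (-2.20, SE 0.18, adjusted p = 0.0185; -2.15, SE 0.18, adjusted p = 0.00811). SEC61A1, the channel through which proteins enter the endoplasmic reticulum, had 381, 359, 315 and 430 against 131, 61.1 and 114 (-1.92; -1.90). NIPSNAP2, a protein of the mitochondrial surface, had 134, 150, 170 and 127 against 47.4, 43.0 and 31.6 (-1.82; -1.86). CNN2, an actin-binding calponin, had 1435, 1799, 1872 and 1770 against 606, 312 and 481 (-1.92; -2.01). NFATC2IP had 460, 395, 392 and 455 against 152, 128 and 138 (-1.60; -1.57). RPS28, of the small ribosomal subunit, had 13334, 13642, 13356 and 15013 against 6145, 2637 and 3822 (-1.80; -1.82), but it shares 21.4% of its exon bases and has near-identical copies, so its level is uncertain. MYCBP, a partner of MYC, had 125, 220, 190 and 182 against 31.6, 44.4 and 45.1 (-2.11; -2.27), with siSCR 1 the lowest control. HDHD2 shares 43.3% of its exon bases and MYCBP 36.7%, the latter with a read-through gene, and their levels carry the same doubt. For ATAD2, a chromatin ATPase that E2F factors induce, siSCR 1 at 322 lay between si1 at 142 to 182 and the other controls at 596 to 748. RHNO1, which helps to activate the ATR kinase, was at 92.3 in siSCR 1, 137 to 145 in the other controls and 25.0 to 42.1 in si1. ADAM12, a metalloprotease, fell from 88.1 to 116 in siSCR to 15.3 to 45.1 in si1 (-1.83; -1.89).

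The second siRNA was set beside si1 for the same genes. Since both siRNAs lower AKR1A1 and the si1 libraries chose these genes, the test of si2 against si1 is a description of size; over all genes it called 704 of 10448 (6.74%). Of the falls, HDHD2 was 200 ± 22.4 with si2 (si2 minus si1 2.06, limma adjusted p = 0.00304), NIPSNAP2 was 195 ± 28.1 (2.24, adjusted p = 0.00409), CNN2 was 2023 ± 314 (2.15, adjusted p = 0.00726) and SEC61A1 was 335 ± 32.9 (1.77, adjusted p = 0.0142), each SD over n = 4. The si2 mean lay within the siSCR range for HDHD2 and SEC61A1 and above it for NIPSNAP2 and CNN2. Of the other falls described here, the si2 mean lay within that range for RFC3 (145) and ATAD2 (457) and above it for NFATC2IP. For RFC3 and ATAD2 this held only through siSCR 1, at 107 and 322, and the si2 mean lay below every library of siSCR 2 to 4. For MYCBP (116 ± 22.4), RHNO1 (88.3 ± 10.8), ADAM12 (62.0 ± 11.5) and RPS28 (12703 ± 837) it lay below every siSCR library and above the si1 mean. The falls shown with a test were picked after their values were seen. GCLM was 376 ± 52.2 with si2 and BECN1 304 ± 26.1, both within their siSCR ranges. For BECN1 this held only through siSCR 1, and the si2 mean lay below every library of siSCR 2 to 4. Of the rises, MAPRE2 was 152 ± 17.0 and ARID5B 99.1 ± 14.0 with si2, below si1 by 0.99 (limma adjusted p = 0.0199) and 1.17 (adjusted p = 0.0303) on the log2 scale. Both si2 means lay above the highest siSCR library, at 118 for MAPRE2 and 84.4 for ARID5B. For every rise from places 9 to 20 the si2 mean lay above all siSCR libraries and below the si1 mean. LPIN1, at 116 ± 23.6, and DUSP3, at 540 ± 97.2, lay between siSCR and si1, and their differences from si1 did not pass (adjusted p = 0.225 and 0.235). CDKN1A was 2920 ± 407 with si2 (si2 minus si1 -1.21, limma adjusted p = 0.0225), and PLK1 was 422 ± 62.1 (1.15, adjusted p = 0.0997). Both si2 means lay between siSCR 2 to 4 and si1. The library siSCR 1, at 4349 for CDKN1A and 188 for PLK1, lay nearer si1 than the si2 means did.

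Markers of the line and of other cells were checked. Of 14 renal tubule and clear-cell carcinoma markers tested, 0 were called with all 7 libraries, and 1 rose and 3 fell without siSCR 1 (7.14% and 21.4%). Over all genes 6.74% rose and 6.1% fell in the latter fit. With all 7, 1 was higher and 4 lower at an unadjusted p under 0.05 in limma, and voom called 1. KRT8 and KRT18, the keratins of simple epithelium, were lower without siSCR 1 (-1.05 and -1.03, against -0.79 and -0.97 with all 7), LHX1 likewise (-0.77 against -0.39), and for LHX1 siSCR 1, at 408, was below every si1 library (595 to 765). PAX8, the transcription factor that marks renal epithelium, was tested and not called (0.23 and 0.36). KRT18 shares 16.3% of its exon bases with KRT8. Of 15 markers of fibroblasts, leukocytes and endothelium, 9 were at 0 in all 7 libraries: COL1A2, DCN, LUM, CD3E, LYZ, PECAM1, CDH5, VWF and KDR. COL1A1 and CD68 were tested, and neither had an unadjusted p under 0.05 in limma or was called by voom. The highest level of the other 4 was 9.17 normalized counts, for PDGFRB. The summed level of all 15 was 83.5 to 155 normalized counts in siSCR and 52.6 to 98.4 in si1. CD68, which reached 112, shares 85.8% of its exon bases with other genes, so this sum may hold reads of those genes.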

How the data were processed

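RNA sequencing measured gene expression in 11 libraries of 769-P cells, of which 7 enter the comparison. Per the submitters' processing notes, reads were handled with cutadapt and FastQC, aligned with STAR to GRCh38, counted with HTSeq and normalized with DESeq2, and per the labels' protocols the method was relative log expression. Tool versions, strandedness and siRNA sequences are not given in the sources used here. Values in the deposited tables are log2 values, the log2 of the normalized count plus 1: with the log undone, 100% of each library's values lay within 0.01 of a whole number of reads, which gave the depths. The authors' own fold changes and p-values were not used. Of 33080 genes, 32677 were matched to a current symbol and 33001 to GENCODE 29, which gave positions and shared exon bases.

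The planned count test does not apply to log2 values, so log2(normalized count + 1) was fitted with limma 3.58.1 (R 4.3.3), without trend or robust fitting, with group as the only term, over genes with a normalized count of at least 10 in 3 of the 7 libraries. Tests are two-sided and errors are standard errors unless called SD. The fit was tested on simulated data. Python 3.11.15 made the summaries and figures. The count from voom used the recovered reads.

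Some genes that the naming rule below selects are not reported here. The members and the 34 gene lists were chosen with earlier results of these data known, including that siSCR 1 stands apart, so no list is independent evidence. Of the listed genes 924 were matched and 4 were not. Named genes are AKR1A1; places 9 to 20 of the rises and of the falls called in both fits, by log2 fold change, among genes with an official symbol, no overlap of groups, and a higher group whose mean normalized count reached 100; and in each list up to 4 members called with all 7 libraries and up to 4 more called without siSCR 1, with a mean of at least 20, or the 2 of highest level where none was called. Other list members are named where a count needed them, after their values were seen. The settings varied were the scaling (upper quartile), the filter (none, or a minimum of 50), the pseudocount (0.5 and 5), limma-trend, voom, all 11 libraries in 1 fit, the mitochondrial share as a covariate, a replicate block and leaving out each library.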

Additional observations from a re-analysis of the deposited data

Results flagged for a closer look

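In the 4 siSCR libraries a value is given here when the gap from the most distant library to its nearest neighbour takes up a larger part of the whole range than Dixon's 95% limit for 4 samples. For values not chosen with such a gap in view, chance alone gives about 1 such group in 20. It was met by the mitochondrial share of reads, by 11 of 34 list scores and by 30 of 152 named genes, and the distant library was siSCR 1 in each case but SLC7A11. These results share that library and are not separate evidence. Of the 154 named genes besides AKR1A1, 98 were called only without siSCR 1, and the naming rule picked genes for this. That favours a distant siSCR 1, so the count of named genes cannot be set beside 1 in 20. The lists were also chosen with siSCR 1 known to stand apart.

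The mitochondrial share was 12.1% in siSCR 1 against 3.46% to 4.46% in the other controls. Of the mitochondrially encoded transcripts, siSCR 1 had 40799 normalized counts of MT-ATP6, 84406 of MT-CO3, 43285 of MT-CO2 and 27092 of MT-CYB, against at most 11951, 23239, 15382 and 7706 in the others.

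List scores, in log2 units around the mean of the 7 libraries, were low in siSCR 1 for kinetochore genes (-0.60), cytokinesis (-0.67), centriole duplication (-0.11), cohesin and condensin (-0.39), replication (-0.41), recombination (-0.30), nucleotide synthesis (-0.42), the proteasome (-0.15), the mitochondrial ribosome (-0.23) and SR proteins with heterogeneous nuclear ribonucleoproteins (-0.42). The p53 target score was high, at 0.34. In the other controls all 10 low scores were above 0.16 and the p53 score was below -0.63.

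Genes of the cell cycle were low in siSCR 1: normalized counts were 188 for PLK1, 38.6 for KIF23, 85.6 for KIF14, 18.5 for CDCA5, 57.1 for MCM10, 123 for DTL, 89.8 for RRM2, 79.8 for DTYMK and 92.3 for RHNO1. The RNA-binding genes HNRNPA2B1 (857) and HNRNPD (568) and the renal transcription factor LHX1 (408) were low as well. Targets of p53 were high, with 4349 for CDKN1A, 317 for RRM2B and 3481 for GDF15.

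The other values high in siSCR 1 were 178 for SREBF2, 8339 for PSAP, 94.0 for TMUB1, 84.8 for HERPUD1, 991 for OPTN, 150 for CLCN7, 2253 for AKR1B1, 1258 for KLF6, 103 for DDIT4 and 10.1 for DBP. SLC7A11, the cystine transporter, was high in siSCR 3 instead, at 61.5 against 35.3 to 38.5.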

How the results depend on the processing

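Against the main count of 181 genes called with all 7 libraries, upper-quartile rescaling gave 117 (42 higher, 75 lower; median of all genes -0.11 against -0.03), no filter 5, a minimum of 50 gave 567, a pseudocount of 5 gave 414, limma-trend 712, voom 582 and all 11 libraries in one fit 1141. A pseudocount of 0.5 (152) and the mitochondrial covariate (238) stayed within 1.5 times. Leaving out 1 library gave 0 to 1351. Without siSCR 1 the count of 1351 became 291 unfiltered, 2158 by limma-trend, 2274 by voom, and 6 to 1759 when a further library was left out; upper-quartile rescaling (1143), a minimum of 50 (1756) and a pseudocount of 5 (1622) stayed within 1.5 times. For si2 against si1 the count of 704 became 230 with no filter and 113 to 851 when 1 library was left out (113 without si2 4). With a replicate block 0 genes were called with all libraries that share a number and 0 without siSCR 1 (2056 and 1920 at unadjusted p under 0.05 in limma); limma-trend and voom without the block gave the counts above. Same-numbered libraries correlated in their deviations at 0.402, 0.093 and 0.147 for numbers 1, 2 and 3. The first was the highest of all pairs, while si1 2 correlated more with siSCR 3 (0.116). Whether the numbers pair the samples cannot be told from this, and the main fits treat them as unpaired. The fit without siSCR 1 keeps si1 1, so a difference shared by the libraries numbered 1 would enter its fold changes. Without si1 1 as well, 835 genes were called. Whether there is such a difference was not tested. AKR1A1 kept its direction in every setting. It missed the threshold with upper-quartile rescaling (-2.62, adjusted p = 0.0509), with no filter (-2.54, adjusted p = 0.0871) and with the replicate block (-2.59, adjusted p = 0.154), and lay between -2.98 and -2.10 when 1 library was left out. Of the 34 list medians with all 7 libraries, 4 moved by more than the spread between replicates with upper-quartile rescaling, 4 with the mitochondrial covariate, 1 with a minimum of 50, 3 without siSCR 1, 2 without siSCR 3 or si1 3, 4 without si1 1 and 5 without si1 2, and 0 in the other settings. Of the medians printed above, these were cholesterol synthesis (0.82 without si1 2) and interferon-stimulated genes (-0.0064 with the covariate). The direction of 2 named genes that were not called with all 7 libraries turned: KDELR1 ranged from -0.39 without si1 3 to 0.14 without si1 2, and LHX1 was 0.0039 with the mitochondrial covariate. Of the 154 named genes besides AKR1A1, 52 were called with all 7 libraries. All of these lost the call without siSCR 2, siSCR 4, si1 1 or si1 3 or with the block, 51 without siSCR 3, 50 without si1 2 or with no filter, 15 with upper-quartile rescaling and 5 with voom. The other 98 called without siSCR 1 alone owe this to the rule that named them. The cause of these shifts was not tested. Depth limits genes of low level: 1 read is worth 0.840 to 1.50 normalized counts in these libraries.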
